A study of Homo sapiens with 8 samples.

Results

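H9 cells, an established line of human embryonic stem cells, were followed from day 1 to day 3 of co-culture. The comparison rests on the 4 libraries whose titles carry D3-Co or D1-Co, out of 8 libraries in all, and runs across 12449 genes. The D3_Co group (day 3 of co-culture) holds replicates 1 and 2, and the D1_Co group (day 1 of co-culture) holds replicates 2 and 3. The other libraries are D2_Co (day 2 of co-culture, replicates 1 and 3) and D3_Control (day 3 of separate culture, replicates 2 and 3). Co in a title is read here as co-culture and Control as separate culture. All 8 libraries were made from polyadenylated RNA of H9 cells at passages 41 to 50, and the labels name no genetic change. Per the labels' protocols the line was kept in the primed state, on Matrigel with mTeSR1 or on growth-arrested mouse feeder cells in a medium containing FGF2 and the WNT pathway inhibitor IWR1, and the labels do not assign a medium to a library. They also do not say which cells shared the dish and how human cells were recovered from it. The series concerns competition between cells of distant species, and the span asks how the human transcriptome moved while co-culture went on. Separate culture of day 1 was not analysed here, so days in culture and days beside other cells cannot be told apart. Levels are FPKM (fragment counts scaled to transcript length and to the mapped fragments of the library), returned to their genes before use because many deposited values stood on the wrong row. Library sums ran from 421825 to 440675 FPKM, with the number of reads unknown. Differences are D3_Co minus D1_Co on the log2(FPKM + 1) scale, which understates the change of low genes. A gene is said to rise or fall where limma's Benjamini-Hochberg adjusted p is under 0.05, and every group holds n = 2 libraries. Whether the 2 libraries of a group came from separate cultures is not labelled, and the p-values cover no more than their spread, which may be technical. In bulk RNA, fewer cells of a type and less RNA per cell cannot be told apart.

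The libraries carried the markers of human pluripotent cells. The 8 markers of that state summed to 1953 to 2009 FPKM in D3_Co and 1853 to 1878 FPKM in D1_Co. POU5F1, a core transcription factor of pluripotency, stood at 811 and 779 FPKM in the D3_Co libraries, against 763 and 787 FPKM in the D1_Co libraries. SOX2, its partner on DNA, was measured at 130.2 and 120.5 FPKM in the D3_Co libraries, against 119 and 116 FPKM in the D1_Co libraries. Neither gene passed the test (adjusted p = 0.625 for POU5F1 and 0.269 for SOX2), though POU5F1 did under another setting of the processing. The difference of POU5F1 was 0.04, turning to -0.0019 with median-of-ratios scaling. The 10 markers of fibroblasts and stroma summed to 350.0 to 355 FPKM in D3_Co and 317 to 322 FPKM in D1_Co. THY1, which human pluripotent cells also express, held most of that sum, with 274.9 and 272.5 FPKM in D3_Co and 268.6 and 279.2 FPKM in D1_Co. DCN and LUM were listed at 0 in all 4 libraries, and COL3A1 at 0.0087 FPKM in D3_Co replicate 1 and 0 in the other 3. The 8 trophoblast and amnion markers summed to 3.36 to 4.05 FPKM in D3_Co and 3.24 to 4.48 FPKM in D1_Co, with HAND1 and CGA listed at 0. The 6 blood and endothelium markers summed to 2.39 to 2.55 FPKM in D3_Co and 2.95 to 3.29 FPKM in D1_Co, with PTPRC and HBE1 listed at 0. The part of these markers in the differences below was not tested.

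Primed human pluripotent cells stand close to the epiblast just before gastrulation. NODAL, WNT, FGF and BMP signals, held in check by secreted antagonists such as CER1, LEFTY2 and FST, can move them towards the primitive streak, from which mesoderm and endoderm arise, and the transcription factors EOMES, MIXL1 and LHX1 are switched on along that path. Sterol supply is set by SREBP2 (gene SREBF2), which turns on the enzymes of cholesterol synthesis when membranes run low in cholesterol. Metallothioneins bind zinc and copper and are switched on by the metal-sensing factor MTF1. In cell competition, cells that are fit by themselves are lost beside fitter neighbours, and MYC and NF-kB signalling have been linked to it in flies and mice.

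The span touched many genes by small amounts. limma called 3312 of 12449 genes (26.6%), of which 2005 rose (16.1%) and 1307 fell (10.5%) in D3_Co against D1_Co. Only 62 of those that rose (0.498% of all tested) and 26 of those that fell (0.209%) differed by over 2-fold. The 2 libraries of D3_Co lay on one side of both D1_Co libraries for each of the 3312 called genes, and over all tested genes the groups did not overlap for 4671 that were higher (37.5%) and 3605 that were lower (29%). The median difference over all tested genes was 0.03. Leaving out D3_Co replicate 1, D3_Co replicate 2, D1_Co replicate 2 or D1_Co replicate 3 left 2017, 1674, 1864 and 1816 genes called. The split into genes that rose and fell was 1703 and 1645 with median-of-ratios scaling, 1507 and 1386 with quantile normalization and 1229 and 1209 with a floor of 5 FPKM on the mean. On day 2 most called genes stood between the ends of the span. The D2_Co mean lay between the D1_Co and D3_Co means for 1582 of 2005 genes that rose (78.9%), for 951 of 1307 that fell (72.8%) and for 44.1% of all tested genes. Called genes were picked for a wide gap between days 1 and 3, and a wide gap holds a day 2 mean more often. These shares therefore describe the called genes and are no test of a gradual course. Genes that rose moved by a median of 0.17 between days 1 and 2 and 0.27 between days 2 and 3, and genes that fell by -0.14 and then -0.21.

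**Figure D1:**
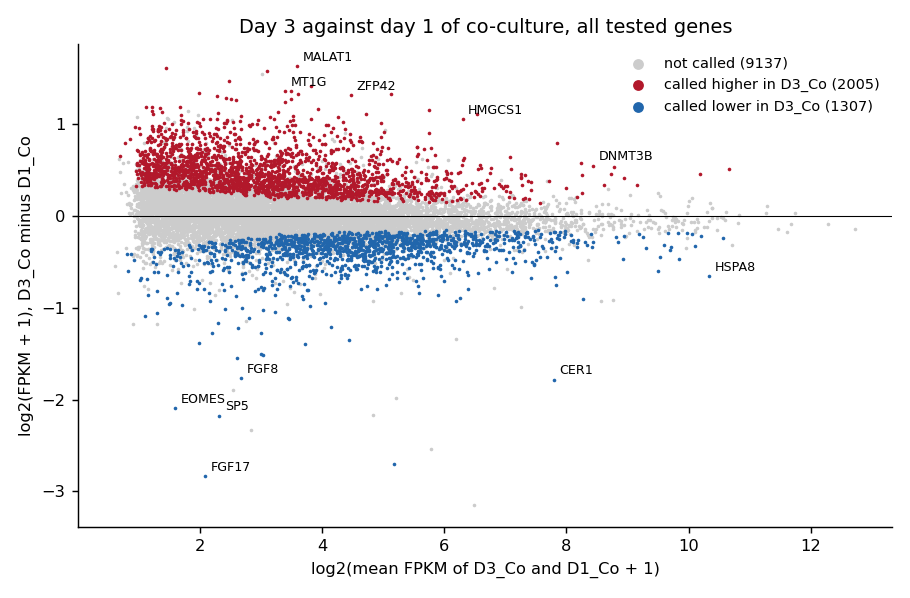
Each point is 1 of 12449 tested genes, with its level (log2 of the mean FPKM of D3_Co and D1_Co plus 1) on the x axis and its difference (log2(FPKM + 1), D3_Co minus D1_Co) on the y axis; red genes were called higher (2005), blue ones lower (1307), grey ones were not called. Drops of over 2-fold were few (26 genes), with CER1 at the highest level among them, while most called genes moved by less than 1 on the log2 scale.

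Genes of the primitive streak and early mesendoderm fell together, and 4 of them lay under 1 FPKM in both D3_Co libraries. EOMES, a T-box factor that starts mesendoderm formation, lay at 0.150 and 0.142 FPKM in the D3_Co libraries, against 3.67 and 4.11 FPKM in the D1_Co libraries. EOMES thus fell below both day 1 libraries in both day 3 libraries (log2 difference -2.09, SE 0.15, adjusted p = 0.000780), with the D2_Co libraries at 0.989 and 1.60 FPKM. SP5, a transcription factor switched on directly by WNT and beta-catenin, had 0.693 and 0.907 FPKM in the D3_Co libraries, against 6.68 and 7.61 FPKM in the D1_Co libraries. SP5 fell without overlap (log2 difference -2.18, SE 0.15, adjusted p = 0.000780) and passed through 2.97 and 4.24 FPKM in D2_Co. CER1, a secreted antagonist of NODAL, BMP and WNT, stood at 97.4 and 100.3 FPKM in the D3_Co libraries, against 367 and 319.7 FPKM in the D1_Co libraries. It was the most abundant of the genes that lost over 2-fold, and both day 3 libraries stood far under both day 1 libraries (log2 difference -1.78, SE 0.10, adjusted p = 0.000349). MIXL1, a homeobox factor of mesoderm and endoderm, was measured at 1.48 and 1.87 FPKM in the D3_Co libraries, against 5.09 and 5.90 FPKM in the D1_Co libraries. MIXL1 fell by 1.28 on the log2 scale. FST, follistatin, which traps activin, fell (6.22 and 5.52 FPKM in D3_Co against 12.3 and 15.8 FPKM in D1_Co), as did the NODAL-responsive factor LHX1 (0.257 and 0.495 FPKM in D3_Co against 1.91 and 1.92 FPKM in D1_Co) and the WNT ligand WNT3 (9.31 and 8.23 FPKM in D3_Co against 14.8 and 15.8 FPKM in D1_Co). Among 9 streak and mesendoderm genes tested, 1 rose and 8 fell (all called), with a median log2 difference of -1.12. FOXA2, a forkhead factor of endoderm, fell (0.628 and 0.368 FPKM in D3_Co against 1.08 and 0.908 FPKM in D1_Co). FOXH1, the NODAL effector on this list, rose (50.4 and 47.7 FPKM in D3_Co against 43.2 and 43.5 FPKM in D1_Co). The other 13 of 22 members, TBXT, GSC, SOX17 and GATA6 among them, averaged under 1 FPKM over the 8 libraries, with none above 0.272 FPKM in D3_Co or 1.16 FPKM in D1_Co. A low gene can pass that limit only through the days on which it is high, so these counts describe the list and are no test of it. In separate culture of day 3, EOMES stood at 0.179 and 0.0724 FPKM, SP5 at 0.154 and 0.253 FPKM, MIXL1 at 1.42 and 1.79 FPKM and CER1 at 48.6 and 41.2 FPKM. In GENCODE 29 on GRCh38, EOMES lies on chromosome 3, 27715949 to 27722711 (minus strand), SP5 on chromosome 2, 170715351 to 170718078 (plus strand), CER1 on chromosome 9, 14719724 to 14722717 (minus strand) and MIXL1 on chromosome 1, 226223618 to 226227054 (plus strand), and all 4 are protein-coding genes. FOXA2 lost its call without D3_Co replicate 2, D1_Co replicate 2 or D1_Co replicate 3. FOXH1 lost its call whichever of the 4 libraries was left out.

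**Figure D2:**
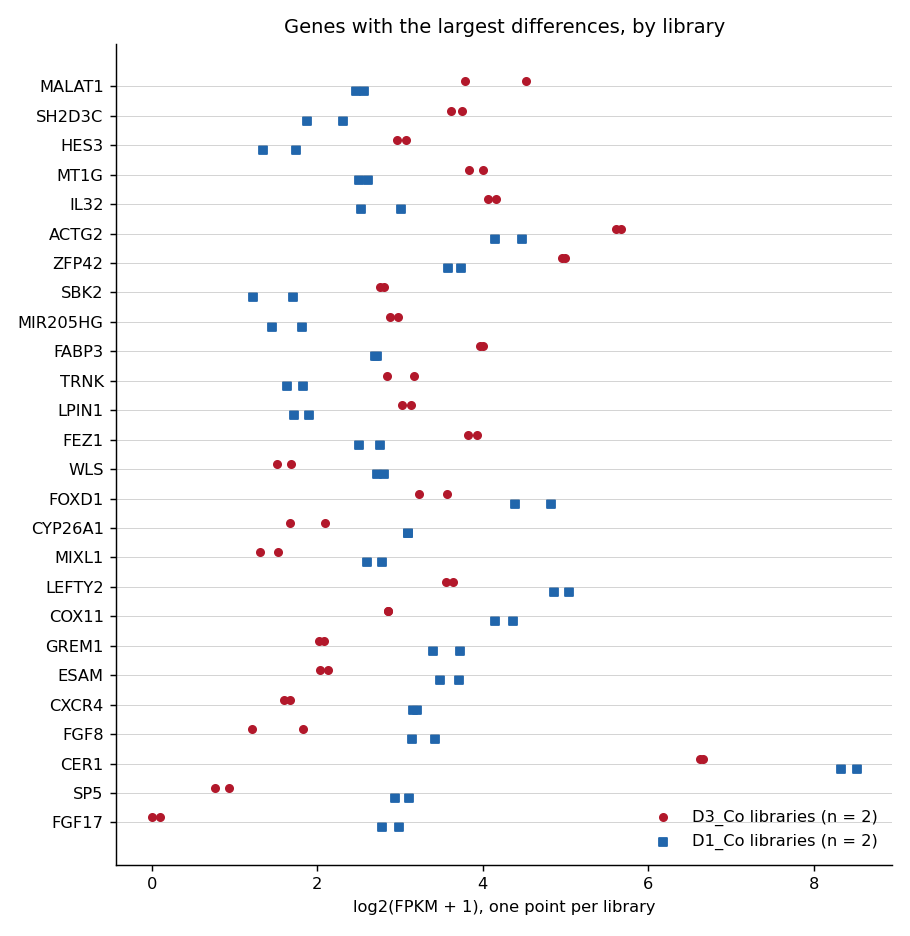
Points give log2(FPKM + 1) on the x axis for each library of genes with the largest rises (upper rows) and the largest falls (lower rows); red circles are the 2 D3_Co libraries and blue squares the 2 D1_Co libraries. Genes were picked among called, settled genes that reach 5 FPKM and whose groups do not overlap, so the lack of overlap was set by the choice. MALAT1 has the widest spread between its D3_Co libraries.

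Genes of the pathways that drive the streak were called in both directions, more of them lower than higher. FGF8, an FGF ligand of the gastrulating embryo, lay at 2.55 and 1.31 FPKM in the D3_Co libraries, against 7.82 and 9.76 FPKM in the D1_Co libraries. FGF8 fell (log2 difference -1.77, SE 0.19, adjusted p = 0.00179). FGF17, a close relative of FGF8, had 0 and 0.0744 FPKM in the D3_Co libraries, against 5.90 and 6.91 FPKM in the D1_Co libraries. FGF17 thus fell to the bottom of the scale (fitted log2 difference -2.83, SE 0.14, adjusted p = 0.000349), while the D2_Co libraries still had 5.79 and 7.6 FPKM. Among 23 FGF pathway and ERK feedback genes tested, 3 rose and 10 fell (56.5% called), with a median log2 difference of -0.13. DUSP phosphatases and SPRY proteins are made in response to ERK activity and damp it. DUSP4 fell (0.915 and 0.987 FPKM in D3_Co against 2.91 and 2.60 FPKM in D1_Co), as did DUSP5 (22.7 and 22.4 FPKM in D3_Co against 33.9 and 32.5 FPKM in D1_Co), SPRY1 (6.34 and 6.14 FPKM in D3_Co against 8.43 and 9.25 FPKM in D1_Co) and SPRY4 (35.2 and 35.6 FPKM in D3_Co against 48.5 and 46.8 FPKM in D1_Co). The receptors split, since FGFR4 rose (25.3 and 23.5 FPKM in D3_Co against 13.5 and 14.9 FPKM in D1_Co) and FGFR3 fell (3.10 and 3.15 FPKM in D3_Co against 4.06 and 4.07 FPKM in D1_Co). FGF pathway and ERK feedback genes that fell numbered 7, 6, 8 and 7 without D3_Co replicate 1, D3_Co replicate 2, D1_Co replicate 2 and D1_Co replicate 3 in turn. FGFR3 lost its call whichever of the 4 libraries was left out.

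Among 25 NODAL and activin pathway genes tested, 3 rose and 7 fell (40.0% called), with a median log2 difference of -0.02. NODAL, the TGF-beta family ligand itself, stood at 33.4 and 34.7 FPKM in the D3_Co libraries, against 55.7 and 56.8 FPKM in the D1_Co libraries. NODAL fell (log2 difference -0.71, SE 0.05, adjusted p = 0.000780). LEFTY2, an antagonist that NODAL signalling induces, was measured at 10.8 and 11.5 FPKM in the D3_Co libraries, against 32.0 and 28.0 FPKM in the D1_Co libraries. LEFTY2 fell (log2 difference -1.35, SE 0.15, adjusted p = 0.00176), whereas LEFTY1, the neighbouring antagonist gene, rose (119 and 128 FPKM in D3_Co against 95.4 and 104 FPKM in D1_Co). SMAD7, the inhibitory SMAD, fell (12.6 and 13.2 FPKM in D3_Co against 17 and 16.5 FPKM in D1_Co). NODAL and activin pathway genes that rose numbered 0, 0, 0 and 1 without D3_Co replicate 1, D3_Co replicate 2, D1_Co replicate 2 and D1_Co replicate 3 in turn. LEFTY1 lost its call whichever of the 4 libraries was left out. SMAD7 sits on a row that the search for misplaced values left unsettled.

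Among 17 BMP pathway and ID genes tested, 0 rose and 8 fell (47.1% called), with a median log2 difference of -0.04. BMP2 fell (0.875 and 0.955 FPKM in D3_Co against 2.63 and 2.50 FPKM in D1_Co) and so did BMP4 (4.58 and 4.51 FPKM in D3_Co against 6.34 and 5.83 FPKM in D1_Co). ID proteins are direct BMP targets that block differentiation factors, and 3 of 4 ID genes fell. ID1 lay at 34.7 and 32.4 FPKM in the D3_Co libraries, against 59.0 and 62.1 FPKM in the D1_Co libraries. ID1 fell by 0.84 on the log2 scale, and ID2 and ID3 had differences of -0.80 and -0.53. GREM1, a secreted BMP antagonist, fell (3.24 and 3.08 FPKM in D3_Co against 12.2 and 9.54 FPKM in D1_Co). Among 17 WNT and beta-catenin pathway genes tested, 2 rose and 6 fell (47.1% called), with a median log2 difference of -0.07. Beside SP5 and WNT3, CCND1, cyclin D1, fell (39.8 and 36.0 FPKM in D3_Co against 60.8 and 61.0 FPKM in D1_Co) and APCDD1, a WNT inhibitor induced by the pathway, fell (1.61 and 1.85 FPKM in D3_Co against 2.92 and 3.71 FPKM in D1_Co). AXIN2, the feedback gene most used as a readout of beta-catenin, was not called. BMP4 lost its call without D3_Co replicate 1, D3_Co replicate 2 or D1_Co replicate 2.

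Pluripotency factors moved in both directions. NANOG, a homeobox factor of the pluripotent core, had 34.5 and 32.1 FPKM in the D3_Co libraries, against 46.6 and 46.4 FPKM in the D1_Co libraries. NANOG fell (log2 difference -0.47, SE 0.06, adjusted p = 0.00220) with POU5F1 and SOX2 uncalled. OTX2, a factor of the primed epiblast, stood at 15.2 and 14.9 FPKM in the D3_Co libraries, against 22 and 24.0 FPKM in the D1_Co libraries. OTX2 fell by 0.58 on the log2 scale, and PRDM14, a repressor of differentiation genes, fell (40.5 and 42.0 FPKM in D3_Co against 53.7 and 59.8 FPKM in D1_Co). ZFP42, also called REX1 and high in undifferentiated cells, was measured at 30.2 and 30.8 FPKM in the D3_Co libraries, against 11 and 12.4 FPKM in the D1_Co libraries. ZFP42 rose (log2 difference 1.32, SE 0.06, adjusted p = 0.000349) although its D2_Co libraries had only 6.01 and 5.82 FPKM. DNMT3B, the de novo DNA methyltransferase of primed cells, lay at 420.1 and 403 FPKM in the D3_Co libraries, against 269.9 and 293 FPKM in the D1_Co libraries. DNMT3B rose (log2 difference 0.55, SE 0.07, adjusted p = 0.00235), and so did TERF1, a telomere-binding protein (98.9 and 94.4 FPKM in D3_Co against 62.3 and 61.7 FPKM in D1_Co) and DPPA2 (3.46 and 3.16 FPKM in D3_Co against 1.71 and 0.879 FPKM in D1_Co). D3_Control stood higher than D3_Co for DNMT3B (652 and 663 FPKM) and TERF1 (144 and 151 FPKM). Among 32 core and primed pluripotency genes tested, 11 rose and 6 fell (53.1% called), with a median log2 difference of 0.13. Of 7 tested naive pluripotency genes 1 rose and 2 fell, namely SUSD2 (0.56), PRDM14 (-0.45) and NODAL (-0.71), and 11 of the 18 on that list were too low to test. Of 7 tested neuroectoderm genes 3 rose and 0 fell, NES (186 and 188 FPKM in D3_Co against 158 and 148 FPKM in D1_Co), FABP7 (2.13 and 2.38 FPKM in D3_Co against 0.659 and 0.719 FPKM in D1_Co) and SOX9 (2.44 and 2.06 FPKM in D3_Co against 1.18 and 1.3 FPKM in D1_Co), with 17 of 24 too low to test. Core and primed pluripotency genes that fell numbered 3, 2, 5 and 2 without D3_Co replicate 1, D3_Co replicate 2, D1_Co replicate 2 and D1_Co replicate 3 in turn. With quantile normalization, core and primed pluripotency genes that fell numbered 3. Of the tested naive genes 42.9% were called and of the tested neuroectoderm genes 42.9%, beside 26.6% over all genes. SOX9 lost its call without D3_Co replicate 1 or D1_Co replicate 2.

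Genes of cholesterol and fatty acid synthesis rose almost as a block. Among 33 sterol and fatty acid genes tested, 25 rose and 0 fell (75.8% called), with a median log2 difference of 0.37. Both D3_Co libraries lay above both D1_Co libraries for 30 of the 33, the called ones included, and for 37.5% of all tested genes. Leaving out 1 library at a time still gave 22 to 23 that rose and 0 that fell. The list divides into 20 enzymes of cholesterol synthesis, of which 14 rose (median 0.34), 7 enzymes of fatty acid synthesis, of which 5 rose (median 0.37), and regulators and carriers. HMGCS1, HMG-CoA synthase, which feeds the mevalonate pathway, had 84.0 and 128 FPKM in the D3_Co libraries, against 48.4 and 50.5 FPKM in the D1_Co libraries. HMGCS1 rose (log2 difference 1.05, SE 0.17, adjusted p = 0.00565), with both D3_Co libraries above both D1_Co libraries and D3_Co replicate 2 the highest. SQLE, squalene epoxidase, rose (107 and 109 FPKM in D3_Co against 84.5 and 83.4 FPKM in D1_Co) as did IDI1, an isomerase of the pathway (47.1 and 51.1 FPKM in D3_Co against 39.4 and 39.1 FPKM in D1_Co). Among the carriers and regulators, STARD4, a carrier of cholesterol inside the cell, rose (13.4 and 11.6 FPKM in D3_Co against 6.91 and 7.89 FPKM in D1_Co), and so did INSIG1, which holds SREBP in the endoplasmic reticulum when sterols are plentiful (36.2 and 34.0 FPKM in D3_Co against 19.8 and 19.7 FPKM in D1_Co). FASN, fatty acid synthase, stood at 301 and 278 FPKM in the D3_Co libraries, against 158 and 176 FPKM in the D1_Co libraries. FASN rose (log2 difference 0.79, SE 0.08, adjusted p = 0.00155), and ACACA, acetyl-CoA carboxylase, rose (40.3 and 38.6 FPKM in D3_Co against 24.0 and 27.1 FPKM in D1_Co) and SCD, the stearoyl-CoA desaturase, rose (525 and 506 FPKM in D3_Co against 355 and 358 FPKM in D1_Co) as well. SREBF2 was measured at 119.7 and 127 FPKM in the D3_Co libraries, against 88.2 and 88.8 FPKM in the D1_Co libraries. SREBF2 rose by 0.47 and SREBF1, which favours fatty acid genes, by 0.28. The D3_Control libraries, of the same day, had 108 and 102 FPKM of HMGCS1 and 247 and 282 FPKM of FASN. IDI1 lost its call without D3_Co replicate 2 or D1_Co replicate 3. SREBF1 lost its call without D1_Co replicate 2.

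SREBP2 binds sterol elements in promoters, its own gene's among them, so the RefSeq promoter of SREBF2 is shown (GRCh38.p14, chr22:41832855-41833154, plus strand, 250 bases before to 50 after the start), with a match to TCACNCCAC in capitals.
SREBF2: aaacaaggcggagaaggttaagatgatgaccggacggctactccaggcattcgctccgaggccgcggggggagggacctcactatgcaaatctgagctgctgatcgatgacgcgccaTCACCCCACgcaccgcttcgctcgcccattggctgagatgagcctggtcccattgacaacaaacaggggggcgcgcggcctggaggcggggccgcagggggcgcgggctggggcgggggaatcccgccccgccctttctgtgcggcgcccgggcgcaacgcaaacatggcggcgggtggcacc
Searched on both strands, TCACNCCAC lay in 1 of 25 promoters of the sterol and fatty acid list that the table holds (4.0%) and in 396 of 35116 promoters in all (1.13%). A match is a description of these letters, and binding was not measured.

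**Figure D3:**
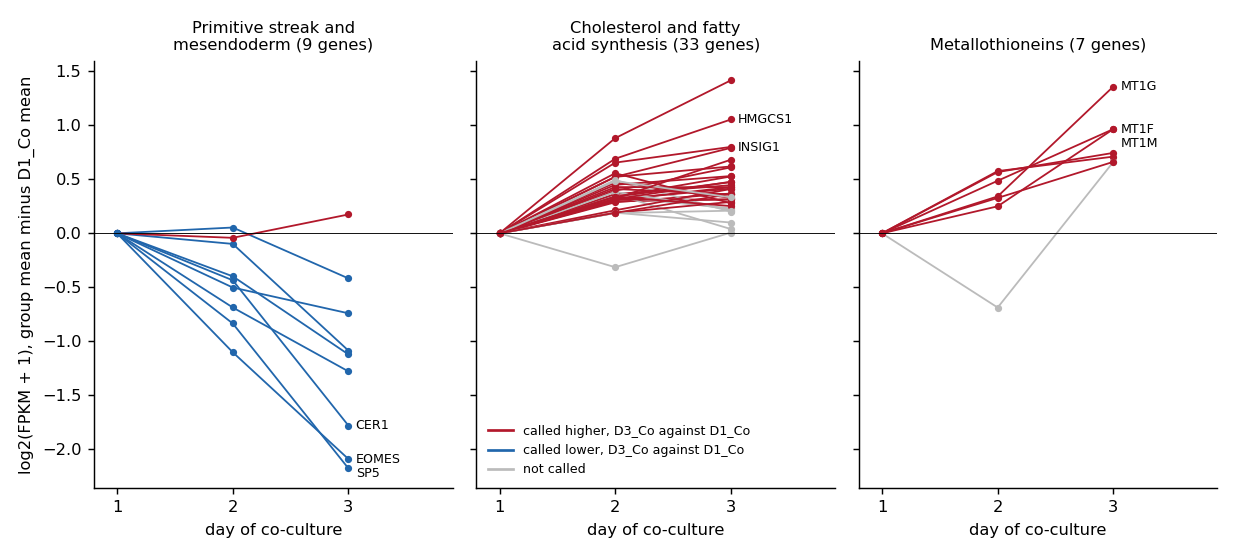
Lines join the difference of each gene's group mean from its D1_Co mean (log2(FPKM + 1), y axis) on days 1, 2 and 3 of co-culture (x axis, n = 2 libraries a day), for tested members of 3 gene groups; red genes were called higher and blue ones lower in D3_Co against D1_Co, grey ones were not called. The sterol and fatty acid genes made most of their rise by day 2 and the streak genes fell further between days 2 and 3.

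Metallothioneins formed the next group that rose. 6 of 7 tested metallothionein genes rose and 0 fell (median 0.74), beside 16.1% that rose and 10.5% that fell over all tested genes. MT1G lay at 15.0 and 13.3 FPKM in the D3_Co libraries, against 5.12 and 4.68 FPKM in the D1_Co libraries. MT1G rose (log2 difference 1.36, SE 0.12, adjusted p = 0.00123). MT2A, the most abundant member with MT1X, had 70.6 and 68.1 FPKM in the D3_Co libraries, against 47.0 and 40.1 FPKM in the D1_Co libraries. MT2A rose (log2 difference 0.66, SE 0.08, adjusted p = 0.00236), and so did MT1X (65.2 and 70.3 FPKM in D3_Co against 42.4 and 37.6 FPKM in D1_Co), MT1F (26.0 and 20.0 FPKM in D3_Co against 12.7 and 9.80 FPKM in D1_Co) and MT1E (15.8 and 13.4 FPKM in D3_Co against 8.74 and 8.27 FPKM in D1_Co). MT1M rose (1.49 and 1.5 FPKM in D3_Co against 0.629 and 0 FPKM in D1_Co) at the lowest level of the group, with D1_Co replicate 3 listed at 0. MT1H did not pass (log2 difference 0.66, SE 0.26, adjusted p = 0.101), though it did under another setting of the processing. Members of this family are near-identical in sequence and lie side by side on chromosome 16, so reads can be shared among them. The D3_Control libraries had 34.8 and 44.4 FPKM of MT1G and 143 and 152 FPKM of MT2A. The whole list of oxidative stress genes and metallothioneins had 31 tested members, of which 8 rose and 4 fell. The 8 include the 6 metallothionein genes, and the 4 that fell all lie outside that family. CBR1, carbonyl reductase, rose (26.8 and 25.2 FPKM in D3_Co against 11.9 and 12.6 FPKM in D1_Co). MT1M lost its call without D3_Co replicate 1, D3_Co replicate 2 or D1_Co replicate 3.

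Metal response elements hold the core TGCACNC or TGCGCNC, and the RefSeq promoters of MT2A (chr16:56608334-56608633) and MT1X (chr16:56682220-56682519) are shown for their several copies (GRCh38.p14, plus strand, 250 bases before to 50 after the start), with matches on either strand in capitals.
MT2A: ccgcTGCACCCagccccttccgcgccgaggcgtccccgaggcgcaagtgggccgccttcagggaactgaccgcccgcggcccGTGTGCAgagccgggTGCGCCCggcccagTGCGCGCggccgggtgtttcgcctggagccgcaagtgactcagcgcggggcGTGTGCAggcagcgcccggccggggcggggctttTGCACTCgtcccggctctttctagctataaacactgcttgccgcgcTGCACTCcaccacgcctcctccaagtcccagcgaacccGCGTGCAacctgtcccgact
MT1X: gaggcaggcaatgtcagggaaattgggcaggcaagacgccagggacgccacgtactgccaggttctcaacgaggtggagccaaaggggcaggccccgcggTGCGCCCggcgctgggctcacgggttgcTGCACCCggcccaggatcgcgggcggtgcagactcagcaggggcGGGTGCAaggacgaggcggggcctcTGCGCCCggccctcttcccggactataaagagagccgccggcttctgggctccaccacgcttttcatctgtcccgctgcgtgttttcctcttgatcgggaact
The core lay 8 times in the MT2A window and 4 times in that of MT1X. In the window of MT1H, which was not called, it lay 8 times. It is short and common, being present in 29.6% of 35116 promoters, in 15 of 20 promoters of the wider list and in 3 of 3 metallothionein promoters that the table holds.

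Chemokines and other NF-kB targets were among the genes that rose. Among 36 NF-kB targets tested, 13 rose and 2 fell (41.7% called), with a median log2 difference of 0.13. IL32, an inflammatory cytokine, stood at 16.8 and 15.7 FPKM in the D3_Co libraries, against 4.79 and 7.09 FPKM in the D1_Co libraries. IL32 rose (log2 difference 1.34, SE 0.15, adjusted p = 0.00184) and had already reached 14.7 and 16.7 FPKM in D2_Co. LTB, lymphotoxin beta, was measured at 2.33 and 3.92 FPKM in the D3_Co libraries, against 0.449 and 0.203 FPKM in the D1_Co libraries. LTB rose (log2 difference 1.62, SE 0.20, adjusted p = 0.00235). CXCL1, a neutrophil chemokine, lay at 7.5 and 7.58 FPKM in the D3_Co libraries, against 4.14 and 2.1 FPKM in the D1_Co libraries. CXCL1 rose (log2 difference 1.10, SE 0.21, adjusted p = 0.0113), with D1_Co replicate 3 the lowest library, and so did CXCL5 (20.2 and 22.2 FPKM in D3_Co against 11.2 and 9.15 FPKM in D1_Co), CXCL6 (2.52 and 2.99 FPKM in D3_Co against 1.61 and 0.929 FPKM in D1_Co) and CXCL8 (1.86 and 2.44 FPKM in D3_Co against 1.07 and 0.767 FPKM in D1_Co). NFKBIZ, an atypical IkB protein, rose (5.10 and 6.26 FPKM in D3_Co against 1.90 and 2.23 FPKM in D1_Co), and TNFAIP3, the feedback inhibitor A20, rose (2.30 and 2.49 FPKM in D3_Co against 1.56 and 1.3 FPKM in D1_Co). The targets that fell were NFKB1 (-0.25), a subunit of the factor, and TNFAIP2 (-0.34). NF-kB targets that rose numbered 10, 6, 10 and 7 without D3_Co replicate 1, D3_Co replicate 2, D1_Co replicate 2 and D1_Co replicate 3 in turn. CXCL1 lost its call without D3_Co replicate 2. CXCL6 and CXCL8 lost their calls without D3_Co replicate 2 or D1_Co replicate 3. NFKB1 and TNFAIP3 lost their calls whichever of the 4 libraries was left out.

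Among 19 MYD88 to IKK signalling genes tested, 2 rose and 3 fell (26.3% called), with a median log2 difference of -0.01. That called share lies near the 26.6% over all genes. MYD88, the adaptor of Toll-like and IL-1 receptors, had 12.3 and 13.1 FPKM in the D3_Co libraries, against 14.8 and 14.6 FPKM in the D1_Co libraries. MYD88 fell (log2 difference -0.20, SE 0.06, adjusted p = 0.0481), as did IRAK1, its kinase (9.91 and 11.4 FPKM in D3_Co against 17.7 and 16 FPKM in D1_Co) and TOLLIP (6.75 and 6.66 FPKM in D3_Co against 8.08 and 8.65 FPKM in D1_Co), whereas IL1RAP, the IL-1 receptor accessory protein, rose (4.08 and 3.93 FPKM in D3_Co against 2.18 and 1.55 FPKM in D1_Co), as did IRAK4 (1.74 and 1.64 FPKM in D3_Co against 0.996 and 0.973 FPKM in D1_Co). RELA, the NF-kB subunit that carries most transcription, was not called (log2 difference -0.22, SE 0.08, adjusted p = 0.0773). It passed the threshold under another setting of the processing. D3_Control stood at 2.83 and 2.86 FPKM for IL32, 0.0939 and 0.0672 FPKM for LTB and 0.884 and 1.15 FPKM for CXCL1. MYD88 to IKK signalling genes that fell numbered 2, 1, 1 and 1 without D3_Co replicate 1, D3_Co replicate 2, D1_Co replicate 2 and D1_Co replicate 3 in turn. IRAK4, MYD88 and TOLLIP lost their calls whichever of the 4 libraries was left out.

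All called genes of antigen presentation and of the interferon response rose. Among 17 MHC class I and antigen-processing genes tested, 10 rose and 0 fell (58.8% called), with a median log2 difference of 0.26. The heavy chain genes HLA-B, HLA-C and HLA-E rose by 0.27, 0.34 and 0.26. B2M, the shared light chain, stood at 59.6 and 68.0 FPKM in the D3_Co libraries, against 55.6 and 52.0 FPKM in the D1_Co libraries. B2M rose by 0.24. TAPBP, tapasin, which loads peptides, rose (34.7 and 33.9 FPKM in D3_Co against 24.9 and 22.4 FPKM in D1_Co), and the immunoproteasome subunits PSMB8 and PSMB9 rose by 0.67 and 0.93. Among 25 interferon-response genes tested, 6 rose and 0 fell (24.0% called), with a median log2 difference of 0.20. That called share lies near the 26.6% over all genes. BST2, tetherin, rose (15.2 and 14.2 FPKM in D3_Co against 7.46 and 6.39 FPKM in D1_Co) and ISG15, a ubiquitin-like protein, rose (14 and 13.9 FPKM in D3_Co against 8.46 and 8.33 FPKM in D1_Co). HLA genes are near-identical to one another in part, and reads can be shared among them. MHC class I and antigen-processing genes that rose numbered 8, 7, 6 and 7 without D3_Co replicate 1, D3_Co replicate 2, D1_Co replicate 2 and D1_Co replicate 3 in turn. B2M and HLA-B lost their calls without D3_Co replicate 2, D1_Co replicate 2 or D1_Co replicate 3. HLA-E lost its call whichever of the 4 libraries was left out. PSMB9 lost its call without D3_Co replicate 1 or D1_Co replicate 2. PSMB9 sits on a row that the search for misplaced values left unsettled.

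Single genes of DNA damage and cell death were called in both directions. GDF15, a secreted stress protein, was measured at 36.4 and 33.9 FPKM in the D3_Co libraries, against 15.9 and 15.4 FPKM in the D1_Co libraries. GDF15 rose (log2 difference 1.12, SE 0.08, adjusted p = 0.000892). DDB2, a DNA damage sensor, lay at 38.1 and 44.9 FPKM in the D3_Co libraries, against 21.1 and 21.7 FPKM in the D1_Co libraries. DDB2 rose (log2 difference 0.92, SE 0.08, adjusted p = 0.00120), and so did PMAIP1, the death gene NOXA (54.6 and 60.3 FPKM in D3_Co against 35.1 and 36.1 FPKM in D1_Co), BBC3, the death gene PUMA (25.9 and 26.5 FPKM in D3_Co against 20.0 and 18.8 FPKM in D1_Co) and RRM2B, a ribonucleotide reductase subunit (14.2 and 13.7 FPKM in D3_Co against 8.30 and 9.30 FPKM in D1_Co). CDKN1A, the cell cycle inhibitor p21, did not pass (log2 difference 0.21, SE 0.10, adjusted p = 0.162). PLK2, a polo-like kinase, fell (64.0 and 64.6 FPKM in D3_Co against 106 and 97.0 FPKM in D1_Co). Among 27 BCL2 family and caspase genes tested, 3 rose and 3 fell (22.2% called), with a median log2 difference of -0.04. That called share lies near the 26.6% over all genes. Beside PMAIP1 and BBC3, BMF, a BH3-only death gene, rose (4.98 and 5.46 FPKM in D3_Co against 3.42 and 3.18 FPKM in D1_Co), and DIABLO fell (17.9 and 19.0 FPKM in D3_Co against 26.2 and 24.0 FPKM in D1_Co) and RIPK1 fell (6.79 and 7.75 FPKM in D3_Co against 11.6 and 11.5 FPKM in D1_Co). BBC3 lost its call without D3_Co replicate 2 or D1_Co replicate 3. BBC3 and CDKN1A sit on rows that the search for misplaced values left unsettled.

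ATF4 and CHOP are transcription factors of the integrated stress response, and more of their called targets fell than rose. Among 34 ATF4 and CHOP targets tested, 4 rose and 11 fell (44.1% called), with a median log2 difference of -0.15. SLC7A5, an amino acid transporter, had 175 and 164 FPKM in the D3_Co libraries, against 292 and 279 FPKM in the D1_Co libraries. SLC7A5 fell (log2 difference -0.75, SE 0.07, adjusted p = 0.00125), as did TRIB3, a pseudokinase (13 and 14.4 FPKM in D3_Co against 23.4 and 23.0 FPKM in D1_Co). GDF15 is also on this list, and ATF3 rose, at 13.8 and 17.1 FPKM in D3_Co against 9.88 and 8.60 FPKM in D1_Co. Among 20 aminoacyl-tRNA synthetase genes tested, 1 rose and 6 fell (35.0% called), with a median log2 difference of -0.07. HARS1 fell by 0.49 on the log2 scale and WARS1 by 0.37. Among 25 unfolded protein response genes tested, 2 rose and 5 fell (28.0% called), with a median log2 difference of -0.09, and XBP1, a factor of that response, fell by 0.29 and MANF, a secreted protector, by 0.34. The called share of the unfolded protein response genes lies near the 26.6% over all genes. Among 23 heat shock genes tested, 2 rose and 8 fell (43.5% called), with a median log2 difference of -0.07. HSPA8, the constitutive HSP70, stood at 1016 and 994 FPKM in the D3_Co libraries, against 1541 and 1630.2 FPKM in the D1_Co libraries. HSPA8 fell (log2 difference -0.66, SE 0.05, adjusted p = 0.00110), and DNAJA1, its co-chaperone, fell (61.0 and 57.9 FPKM in D3_Co against 90.5 and 88.4 FPKM in D1_Co), while HSPB8, a small heat shock protein, rose (11.3 and 12.1 FPKM in D3_Co against 7.56 and 7.09 FPKM in D1_Co). ATF4 and CHOP targets that rose numbered 3, 2, 3 and 2, ATF4 and CHOP targets that fell numbered 5, 4, 6 and 6, aminoacyl-tRNA synthetase genes that fell numbered 4, 3, 3 and 3, unfolded protein response genes that fell numbered 4, 2, 2 and 2 and heat shock genes that fell numbered 6, 5, 5 and 5 without D3_Co replicate 1, D3_Co replicate 2, D1_Co replicate 2 and D1_Co replicate 3 in turn. ATF3 lost its call without D3_Co replicate 2 or D1_Co replicate 3. WARS1 lost its call without D1_Co replicate 2. ATF3 sits on a row that the search for misplaced values left unsettled.

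Among called genes that build ribosomes, most were lower on day 3. Among 48 ribosome biogenesis genes and MYC targets tested, 2 rose and 23 fell (52.1% called), with a median log2 difference of -0.23. ODC1, ornithine decarboxylase, a classical MYC target, was measured at 125 and 136 FPKM in the D3_Co libraries, against 213 and 204 FPKM in the D1_Co libraries. ODC1 fell (log2 difference -0.67, SE 0.06, adjusted p = 0.00133). RRP9, a factor of ribosomal RNA processing, lay at 29.7 and 27.6 FPKM in the D3_Co libraries, against 43.4 and 44.9 FPKM in the D1_Co libraries. RRP9 fell (log2 difference -0.61, SE 0.05, adjusted p = 0.00123), as did MRTO4 (21.4 and 23.6 FPKM in D3_Co against 31.7 and 36.7 FPKM in D1_Co) and RRS1 (38.4 and 34.8 FPKM in D3_Co against 52.5 and 53 FPKM in D1_Co), both ribosome assembly factors. MYC had 24.1 and 23.4 FPKM in the D3_Co libraries, against 33.1 and 31.0 FPKM in the D1_Co libraries. MYC fell (log2 difference -0.42, SE 0.06, adjusted p = 0.00428), and MYCN was not called (log2 difference -0.20, SE 0.08, adjusted p = 0.123). Among 59 ribosomal protein genes tested, 0 rose and 4 fell (6.78% called), with a median log2 difference of -0.07. This share of calls is below the 26.6% over all genes. RPL14 and RPS14 were among those that fell (-0.19 and -0.19). Ribosome biogenesis genes and MYC targets that fell numbered 17, 15, 19 and 15 and ribosomal protein genes that fell numbered 7, 0, 0 and 1 without D3_Co replicate 1, D3_Co replicate 2, D1_Co replicate 2 and D1_Co replicate 3 in turn. With quantile normalization, ribosomal protein genes that fell numbered 0. RPL14 lost its call whichever of the 4 libraries was left out. RPS14 lost its call without D3_Co replicate 2, D1_Co replicate 2 or D1_Co replicate 3.

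Among 37 G2/M and mitosis genes tested, 14 rose and 0 fell (37.8% called), with a median log2 difference of 0.20. TOP2A, topoisomerase II alpha, stood at 63.1 and 61.8 FPKM in the D3_Co libraries, against 40.6 and 40.4 FPKM in the D1_Co libraries. TOP2A rose (log2 difference 0.61, SE 0.04, adjusted p = 0.000780), as did HMMR (23.4 and 22.2 FPKM in D3_Co against 16.5 and 14.6 FPKM in D1_Co), MKI67, the proliferation marker Ki-67 (29.4 and 33.4 FPKM in D3_Co against 19.9 and 21.9 FPKM in D1_Co), CENPF, a kinetochore protein (25.7 and 24.5 FPKM in D3_Co against 17.2 and 17.4 FPKM in D1_Co) and BUB1B, a checkpoint kinase (37.9 and 37.5 FPKM in D3_Co against 25.6 and 27.2 FPKM in D1_Co). CCNB1, CDK1, PLK1 and AURKA, which drive entry into mitosis, were not called. Among 50 DNA replication and G1/S genes tested, 1 rose and 9 fell (20.0% called), with a median log2 difference of -0.07. That called share is below the 26.6% over all genes. RRM2, ribonucleotide reductase M2, fell (71.7 and 69.1 FPKM in D3_Co against 92.5 and 93.4 FPKM in D1_Co) and CCNE2, cyclin E2, fell (0.380 and 0.711 FPKM in D3_Co against 1.48 and 1.5 FPKM in D1_Co). G2/M and mitosis genes that rose numbered 7, 7, 7 and 8 and DNA replication and G1/S genes that fell numbered 5, 4, 6 and 4 without D3_Co replicate 1, D3_Co replicate 2, D1_Co replicate 2 and D1_Co replicate 3 in turn. CENPF and MKI67 lost their calls whichever of the 4 libraries was left out.

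Among 45 nuclear-encoded oxidative phosphorylation genes tested, 0 rose and 8 fell (17.8% called), with a median log2 difference of -0.10. This share of calls is below the 26.6% over all genes. Among 37 glycolysis and hypoxia genes tested, 11 rose and 5 fell (43.2% called), with a median log2 difference of 0.02. ADM, adrenomedullin, a hypoxia target, was measured at 50.6 and 48.2 FPKM in the D3_Co libraries, against 95.5 and 94.2 FPKM in the D1_Co libraries. ADM fell (log2 difference -0.93, SE 0.05, adjusted p = 0.000349), whereas ALDOC, an aldolase, rose (33.6 and 32.7 FPKM in D3_Co against 20.3 and 20.9 FPKM in D1_Co) and PDK3, a pyruvate dehydrogenase kinase, rose (8.91 and 8.89 FPKM in D3_Co against 5.70 and 5.87 FPKM in D1_Co). Nuclear-encoded oxidative phosphorylation genes that fell numbered 4, 1, 1 and 0 and glycolysis and hypoxia genes that fell numbered 4, 3, 2 and 3 without D3_Co replicate 1, D3_Co replicate 2, D1_Co replicate 2 and D1_Co replicate 3 in turn. With median-of-ratios scaling, nuclear-encoded oxidative phosphorylation genes that fell numbered 13. With quantile normalization, nuclear-encoded oxidative phosphorylation genes that fell numbered 1 and glycolysis and hypoxia genes that fell numbered 2.

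**Figure D4:**
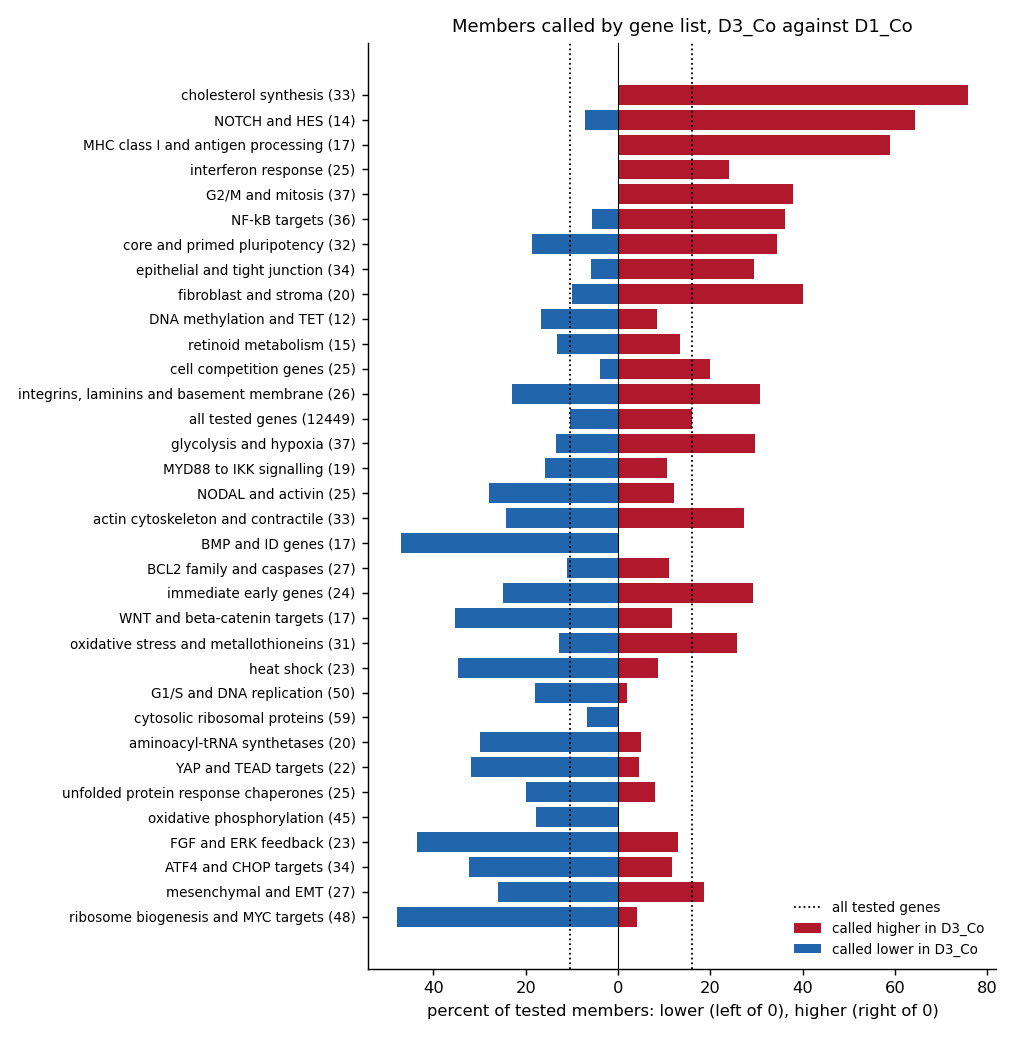
Bars give the percent of each list's tested members that were called lower (blue, left of 0) or higher (red, right of 0) in D3_Co against D1_Co, with the number tested in brackets, for lists of 12 or more described here, ordered by median difference; dotted lines mark all tested genes (10.5% lower, 16.1% higher). Cholesterol synthesis has the longest red bar (25 of 33), and ribosome biogenesis and BMP genes the longest blue ones (23 of 48 and 8 of 17).

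Genes of cell shape and attachment moved in both directions, and several of them stood highest on day 2. All 4 muscle actin genes rose (median 0.87), beside 16.1% of all tested genes. Whether reads were shared among actin genes was not tested. ACTG2, an actin of smooth muscle, lay at 47.9 and 49.8 FPKM in the D3_Co libraries, against 21.3 and 16.7 FPKM in the D1_Co libraries. ACTG2 rose (log2 difference 1.33, SE 0.14, adjusted p = 0.00155) but had 86.0 and 91.5 FPKM in D2_Co. ACTA1 rose (59.5 and 56.4 FPKM in D3_Co against 39.0 and 29.6 FPKM in D1_Co), ACTC1 rose (8.87 and 7.91 FPKM in D3_Co against 3.96 and 3.53 FPKM in D1_Co) and ACTA2 rose (12.4 and 11.6 FPKM in D3_Co against 6.30 and 7.98 FPKM in D1_Co). ACTB, cytoplasmic beta-actin, had 6580.4 and 6365 FPKM in the D3_Co libraries, against 7523 and 6735 FPKM in the D1_Co libraries. ACTB was not called (log2 difference -0.14, SE 0.07, adjusted p = 0.198), nor was GAPDH (log2 difference -0.09, SE 0.07, adjusted p = 0.367). Among 33 actin cytoskeleton genes tested, 9 rose and 8 fell (51.5% called), with a median log2 difference of -0.03. Actin cytoskeleton genes that fell numbered 5, 5, 3 and 7 without D3_Co replicate 1, D3_Co replicate 2, D1_Co replicate 2 and D1_Co replicate 3 in turn. With quantile normalization, actin cytoskeleton genes that fell numbered 5.

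Among 27 mesenchymal genes tested, 5 rose and 7 fell (44.4% called), with a median log2 difference of -0.20. LGALS1, galectin 1, rose (68.4 and 70.3 FPKM in D3_Co against 36.4 and 37.0 FPKM in D1_Co), and TGFBI, a matrix protein induced by TGF-beta, fell (9.35 and 8.52 FPKM in D3_Co against 16.4 and 16.3 FPKM in D1_Co). Among 34 epithelial and tight junction genes tested, 10 rose and 2 fell (35.3% called), with a median log2 difference of 0.12. TJP3, a tight junction scaffold, rose (5.62 and 5.50 FPKM in D3_Co against 1.99 and 2.33 FPKM in D1_Co), as did the claudins CLDN3 and CLDN4, by 0.68 and 0.72. Among 26 integrin and basement membrane genes tested, 8 rose and 6 fell (53.8% called), with a median log2 difference of 0.05. HSPG2, perlecan, rose (21 and 20.9 FPKM in D3_Co against 11.4 and 13.4 FPKM in D1_Co) and LAMA1, a laminin chain, rose (9.08 and 9.31 FPKM in D3_Co against 5.34 and 6.56 FPKM in D1_Co). Mesenchymal genes that fell numbered 4, 4, 4 and 7, epithelial and tight junction genes that rose numbered 6, 6, 6 and 6 and integrin and basement membrane genes that fell numbered 1, 1, 2 and 3 without D3_Co replicate 1, D3_Co replicate 2, D1_Co replicate 2 and D1_Co replicate 3 in turn. With quantile normalization, integrin and basement membrane genes that fell numbered 2.

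Among 22 YAP and TEAD targets tested, 1 rose and 7 fell (36.4% called), with a median log2 difference of -0.07, AMOTL2 (25.3 and 24.1 FPKM in D3_Co against 36.2 and 34.8 FPKM in D1_Co) among them. Fibroblast markers moved beside these groups. Among 20 fibroblast and stroma markers tested, 8 rose and 2 fell (50.0% called), with a median log2 difference of 0.11. COL1A2, a chain of type I collagen, stood at 25.1 and 24.9 FPKM in the D3_Co libraries, against 11.6 and 11 FPKM in the D1_Co libraries. COL1A2 rose (log2 difference 1.08, SE 0.09, adjusted p = 0.00120), and so did COL1A1 (42.5 and 40.0 FPKM in D3_Co against 25.3 and 23.1 FPKM in D1_Co). COL3A1, DCN and LUM stayed at the values near 0 given above, and the part of fibroblasts in these differences was not tested. Fibroblast and stroma markers that rose numbered 5, 6, 6 and 5 without D3_Co replicate 1, D3_Co replicate 2, D1_Co replicate 2 and D1_Co replicate 3 in turn.

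Most NOTCH pathway genes rose, and HES1 fell. Among 14 NOTCH pathway and HES genes tested, 9 rose and 1 fell (71.4% called), with a median log2 difference of 0.33. NOTCH1, a receptor, was measured at 20.8 and 19.8 FPKM in the D3_Co libraries, against 13.5 and 14.6 FPKM in the D1_Co libraries. NOTCH1 rose by 0.51. The ligands DLL3 and JAG2 rose by 0.69 and 0.49, and NRARP, a feedback inhibitor, rose (10.5 and 8.78 FPKM in D3_Co against 5.27 and 6.0 FPKM in D1_Co). HES1, the repressor most often read as NOTCH output, fell (5.65 and 6.14 FPKM in D3_Co against 10.7 and 9.75 FPKM in D1_Co). HES3, a HES family repressor outside the list, lay at 6.82 and 7.41 FPKM in the D3_Co libraries, against 1.54 and 2.35 FPKM in the D1_Co libraries. HES3 rose (log2 difference 1.47, SE 0.13, adjusted p = 0.00123). NOTCH pathway and HES genes that rose numbered 4, 5, 6 and 6 without D3_Co replicate 1, D3_Co replicate 2, D1_Co replicate 2 and D1_Co replicate 3 in turn. DLL3 lost its call without D3_Co replicate 1, D3_Co replicate 2 or D1_Co replicate 3.

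CYP26A1, an enzyme that breaks down retinoic acid, had 2.18 and 3.26 FPKM in the D3_Co libraries, against 7.59 and 7.55 FPKM in the D1_Co libraries. CYP26A1 fell (log2 difference -1.22, SE 0.17, adjusted p = 0.00408), as did RARA, a retinoic acid receptor (8.92 and 8.71 FPKM in D3_Co against 13.4 and 14.1 FPKM in D1_Co), and CRABP1, a binding protein for retinoic acid, rose (173 and 154 FPKM in D3_Co against 104 and 104 FPKM in D1_Co). Of 15 tested retinoid genes 2 rose, CRABP1 and RDH11, and 2 fell, which at 26.7% called is near the 26.6% over all genes.

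Among 25 genes linked to cell competition tested, 5 rose and 1 fell (24.0% called), with a median log2 difference of 0.06, again a called share near that over all genes. The members called were MYC (-0.42), PRKCI (0.58), CRB3 (0.39), PARD6B (0.31), DLG3 (0.26) and PARD3 (0.18), all but MYC being genes of cell polarity. Among 24 immediate early genes tested, 7 rose and 6 fell (54.2% called), with a median log2 difference of -0.06. NR4A1, a nuclear receptor, rose (4.98 and 5.76 FPKM in D3_Co against 2.13 and 2.40 FPKM in D1_Co) and FOSL2, an AP-1 factor, fell (9.91 and 10.6 FPKM in D3_Co against 15.8 and 14.7 FPKM in D1_Co). SERPINE2, an inhibitor of urokinase and thrombin, stood at 51.4 and 43.5 FPKM in the D3_Co libraries, against 76.6 and 78.9 FPKM in the D1_Co libraries. SERPINE2 fell (log2 difference -0.71, SE 0.08, adjusted p = 0.00181). Of 9 tested urokinase and plasminogen genes 1 rose and 1 fell, a called share below that over all genes. Genes linked to cell competition that rose numbered 2, 1, 2 and 1, immediate early genes that rose numbered 5, 3, 7 and 4 and immediate early genes that fell numbered 3, 3, 3 and 6 without D3_Co replicate 1, D3_Co replicate 2, D1_Co replicate 2 and D1_Co replicate 3 in turn. With quantile normalization, genes linked to cell competition that rose numbered 3. CRB3, PARD3 and PARD6B lost their calls whichever of the 4 libraries was left out. DLG3 lost its call without D3_Co replicate 2 or D1_Co replicate 3. PRKCI sits on a row that the search for misplaced values left unsettled.

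Other genes with the largest differences belong to no list. MALAT1, a nuclear long non-coding RNA, was measured at 12.8 and 22.1 FPKM in the D3_Co libraries, against 4.92 and 4.55 FPKM in the D1_Co libraries. MALAT1 rose (log2 difference 1.64, SE 0.21, adjusted p = 0.00283), with D3_Co replicate 2 well above D3_Co replicate 1. SH2D3C, an adaptor of receptor signalling, lay at 12.5 and 11.2 FPKM in the D3_Co libraries, against 3.97 and 2.68 FPKM in the D1_Co libraries. SH2D3C rose (log2 difference 1.59, SE 0.15, adjusted p = 0.00133). FABP3, a carrier of fatty acids, rose (14.6 and 15.1 FPKM in D3_Co against 5.48 and 5.62 FPKM in D1_Co), as did LPIN1, a phosphatidate phosphatase (7.15 and 7.76 FPKM in D3_Co against 2.74 and 2.28 FPKM in D1_Co) and FEZ1, an adaptor of kinesin (13.1 and 14.3 FPKM in D3_Co against 4.68 and 5.79 FPKM in D1_Co). SBK2, a kinase, rose (5.77 and 6.0 FPKM in D3_Co against 2.27 and 1.34 FPKM in D1_Co), and so did the host transcript of miR-205, MIR205HG (6.34 and 6.89 FPKM in D3_Co against 2.52 and 1.74 FPKM in D1_Co). TRNK, the gene of the mitochondrial lysine tRNA, rose (7.97 and 6.19 FPKM in D3_Co against 2.55 and 2.11 FPKM in D1_Co). Whether its value comes from the mature tRNA or from a longer transcript was not tested. CXCR4, a chemokine receptor that also marks definitive endoderm, had 2.19 and 2.03 FPKM in the D3_Co libraries, against 8.24 and 7.96 FPKM in the D1_Co libraries. CXCR4 fell (log2 difference -1.55, SE 0.14, adjusted p = 0.00125). ESAM, a junctional adhesion protein of endothelium, fell (3.10 and 3.38 FPKM in D3_Co against 12.1 and 10.2 FPKM in D1_Co), and so did FOXD1, a forkhead factor (10.8 and 8.40 FPKM in D3_Co against 27.3 and 19.9 FPKM in D1_Co) and WLS, which carries WNT proteins to the cell surface (1.85 and 2.22 FPKM in D3_Co against 5.97 and 5.58 FPKM in D1_Co). COX11, a copper chaperone for cytochrome c oxidase, stood at 6.23 and 6.23 FPKM in the D3_Co libraries, against 16.7 and 19.6 FPKM in the D1_Co libraries. COX11 fell (log2 difference -1.40, SE 0.08, adjusted p = 0.000353). CST1, cystatin SN, had 9.39 and 7.91 FPKM in D3_Co against 60.5 and 62.4 FPKM in D1_Co (log2 difference -2.70, SE 0.10, adjusted p = 0.000275), and was left out of the ranking because its row was not settled. TRNK lost its call whichever of the 4 libraries was left out. CST1 sits on a row that the search for misplaced values left unsettled.

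A test of the day steps asked whether the step between days 2 and 3 differed from the step between days 1 and 2. limma called 548 of 12449 genes (4.40%), 208 whose second step was the higher (1.67%) and 340 whose second step was the lower (2.73%). ACTC1 averaged 3.74, 18.8 and 8.39 FPKM on days 1, 2 and 3, ACTG2 19.0, 88.8 and 48.9 FPKM, and ACTA1 34.3, 127 and 58.0 FPKM. These 3 actins peaked on day 2. ZFP42 did the opposite, with 11.7, 5.92 and 30.5 FPKM. FGF17 held at 5.90 and 6.91 FPKM on day 1 and 5.79 and 7.6 FPKM on day 2, and was listed at 0 and 0.0744 FPKM on day 3. This count leaned on single libraries, since 155, 355, 215, 224, 34 and 28 genes were called without D3_Co replicate 1, D3_Co replicate 2, D1_Co replicate 2, D1_Co replicate 3, D2_Co replicate 1 and D2_Co replicate 3 in turn. By list, actin cytoskeleton genes had 14 of 33 called, mesenchymal genes 10 of 27 and sterol and fatty acid genes 8 of 33, beside 4.40% of all tested genes. These list counts were not repeated with a library left out.

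The exons of some named genes overlap those of other genes, and the counting is not stated to use strand, so their values are uncertain. These genes are ACTA2, ACTC1, ALDOC, AMOTL2, BBC3, BMF, BUB1B, CBR1, CCND1, CCNE2, CD68, CDKN1A, COX11, CRABP1, CRB3, CXCL6, CYP26A1, DIABLO, DLG3, FEZ1, FOXA2, FOXD1, FOXH1, GAPDH, GREM1, HARS1, HLA-B, HLA-C, HMGCS1, HMMR, HSPA8, HSPG2, ID2, IDI1, IL1RAP, IL32, IRAK1, ISG15, JAG2, LAMA1, LEFTY1, LEFTY2, LHX1, LPIN1, MALAT1, MBD3, MIR205HG, MIR3064, MRTO4, MT1X, MYCN, NODAL, NR4A1, POU5F1, PSMB8, PSMB9, RARA, RDH11, RELA, RIPK1, RN7SL1, RRM2, RRS1, SLC7A5, SREBF1, SREBF2, STARD4, TNFAIP3, WARS1 and WLS.

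**Figure D5:**
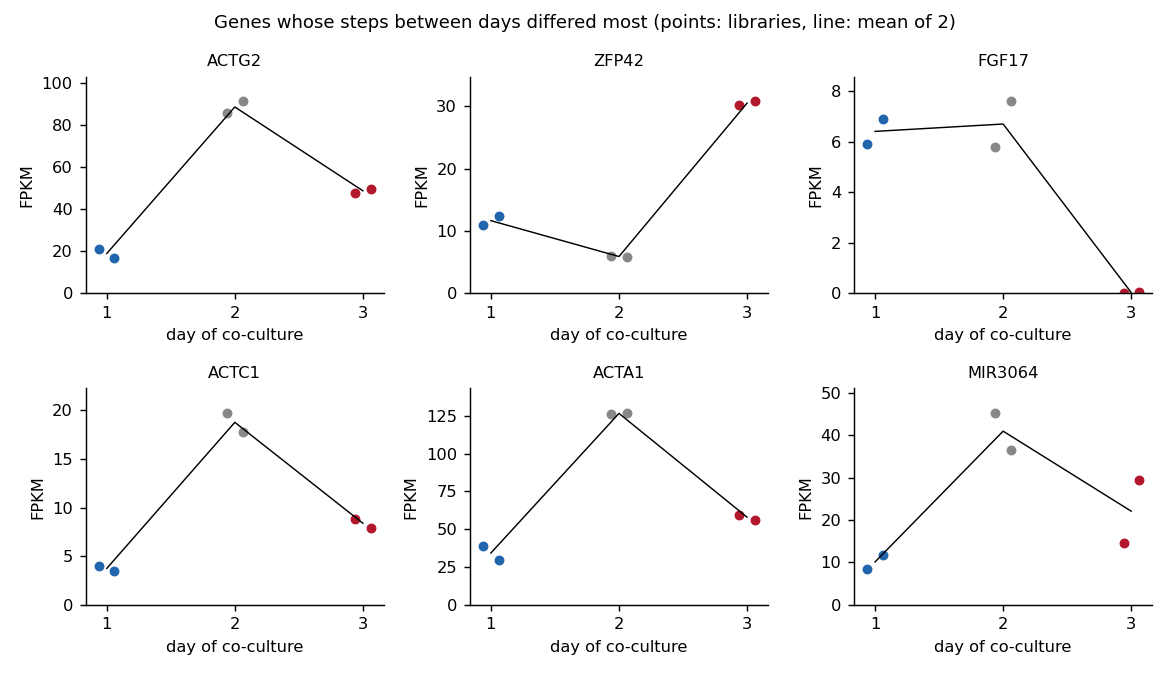
FPKM (y axis, from 0) on days 1, 2 and 3 of co-culture (x axis) for the 6 genes whose day steps differed most; points are the 2 libraries of D1_Co (blue), D2_Co (grey) and D3_Co (red) and the line joins their means. ACTG2, ACTA1, ACTC1 and MIR3064 peak on day 2, ZFP42 has its lowest level there, and FGF17 drops between days 2 and 3.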

How the data were processed

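Polyadenylated RNA of H9 cells was sequenced in 8 libraries. Per the submitters' processing notes the tools named are HISAT2 2.1.0 and StringTie 1.3.3b and the build is GRCh38.p12, and the deposited values are FPKM per gene, made by the authors. The file holds 45961 genes and no counts, so neither the depth nor the precision that depth would give is known.

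Many FPKM stood on the wrong row. In 7 of 8 libraries the values fit an order in which lines of gene number and value had been sorted as text and set beside the gene numbers that D1_Co replicate 2 had, and 3394 gene numbers could trade values that way. That history is inferred from the values and is stated in no label. For each library a search over the orders it allows picked the one nearest to D1_Co replicate 2, with a pseudocount of 0.1 FPKM and differences capped at 4 on the log2 scale. Sorted again, each result gave back all 45961 deposited rows. A row was called settled when its value stayed within 0.25 on the log2 scale under 10 random changes of the target (SD 0.5), and 413 tested rows were not. Of the tested rows, 7965 were in place in all libraries and 4484 were moved, 3380 of them in a D3_Co or D1_Co library. In simulated data 4323 of 12449 rows were misplaced before the search and 38 after it, 12 of them among settled rows. These data were built around the group means measured here. Whether the search returned the deposited FPKM to the right rows was not tested. The target being a day 1 library, a misplaced value is drawn towards day 1.

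The genes tested averaged 1 FPKM or more across all 8 libraries and had a name that belongs to their gene number (12449, with 655 left out on the name). limma 3.58.1 (R 4.3.3, Python 3.11.15) was fitted on log2(FPKM + 1) in 1 model of 4 groups with 4 residual degrees of freedom and an intensity trend. Tests were two-sided, with Benjamini-Hochberg adjustment over all tested genes and a threshold of 0.05. In a simulation over 12426 genes, 50 of 50 genes were called at each of -2, -1, 1 and 2 on the log2 scale, and 10 of 12226 unchanged genes were called. Each simulated library was drawn around a mean common to all groups, with noise set by hand and equal for all genes. The changed genes had a mean of at least 2 FPKM. Missed and false calls in the deposited values were therefore not measured.

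Named genes were the 14 largest rises and 14 largest falls among called, settled genes that do not overlap and reach 5 FPKM, up to 4 called members of each list, 11 genes named whatever their values, and the 6 largest differences between day steps. Others were chosen after their values were seen, SREBF2, MT2A, HLA-B, CST1 and RN7SL1 among them. Some genes and a list that these rules take are not reported here. Members and lists were chosen with earlier results of these data known. Other pseudocounts, filters, scalings, row sets, sample sets, variance models and left-out libraries were tried. Coordinates come from GENCODE 29 and promoters from RefSeq.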

Additional observations from a re-analysis of the deposited data

Results flagged for a closer look

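For 548 of 12449 genes the step from day 2 to day 3 differed from the step from day 1 to day 2 in limma's test of that difference (adjusted p under 0.05). The difference, second step minus first step on the log2(FPKM + 1) scale, was -3.13 for ACTC1, -3.02 for ACTG2 and -2.98 for ACTA1, the actins of cardiac, smooth and skeletal muscle. It was 3.06 for ZFP42, the pluripotency marker REX1, and -2.93 for the ligand gene FGF17. MIR3064, a microRNA gene, had a difference of -2.86, with 8.46 and 11.8 FPKM in D1_Co, 45.4 and 36.6 FPKM in D2_Co and 14.7 and 29.5 FPKM in D3_Co. Its difference of steps was no longer called without D1_Co replicate 2, D1_Co replicate 3, D2_Co replicate 1 or D2_Co replicate 3. It was also called higher in D3_Co against D1_Co, a call it lost without D3_Co replicate 2, D1_Co replicate 2 or D1_Co replicate 3. Exons of MIR3064 overlap another gene, so its level is uncertain. The other 5 genes kept their difference of steps past the threshold under each left-out library. Over all genes, 34 were called without D2_Co replicate 1 and 28 without D2_Co replicate 3.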

How the results depend on the processing

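Between D3_Co and D1_Co, 3312 genes were called. The number was 2031 (1242 higher and 789 lower) when only the 7965 rows in place were tested, which by construction tests fewer genes, and 1940 (1193 higher and 747 lower) with a replicate block. Higher calls numbered 1229 with a floor of 5 FPKM on the mean. Leaving out 1 library gave 1674 to 2017 calls, with 973 to 1228 higher and 701 to 789 lower. The table as deposited gave 2375 calls, 1705 of them among the 3312, and the D3_Co and D1_Co libraries alone gave 2323. The 548 genes whose day steps differ numbered 306 on rows in place, 1319 in the table as deposited, 282 with only the co-culture libraries, 349 without an intensity trend, 44 with a replicate block and 28 to 355 without 1 library. The causes were not tested. Same-numbered libraries deviated from their group means with correlations of -0.031 to 0.044. D3_Co and D1_Co share only number 2, so these values do not settle whether the numbers pair the libraries.

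Of 3592 values of 234 named genes under the other settings, 3232 kept their direction and their side of the threshold. Another 350 kept the direction and lost the call, 8 gained a call and 2 changed sign. The gained calls were of POU5F1, RELA, MT1H, RN7SL1, RN7SL2 and RN7SL3. The sign changed for POU5F1, to -0.0019 with median-of-ratios scaling. It also changed for CDKN1A, to -0.1574 (adjusted p = 0.596) in a second pass of the search drawn to D3_Co. Neither was called in the setting that changed its sign. Of 46 list counts of at least 3 genes, 31 moved by over 1.5 times on rows in place and 12 with the replicate block. With only the D1_Co and D3_Co libraries 11 moved that far. The number was 7 with quantile normalization, 4 with the floor of 5 FPKM and 15 to 26 without 1 library. None moved that far with a pseudocount of 0.1 or a floor of 0.1 FPKM. Per gene and per list, the table as deposited was not run. The FPKM hold no read numbers, so what depth limits cannot be stated.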

Other observations

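Smaller lists gave few tested members. Of 12 tested DNA methylation genes 1 rose and 2 fell, DNMT3B (0.55) against UHRF1 (-0.30), which guides the maintenance methyltransferase, and MBD3 (-0.36), a called share of 25.0%, near the 26.6% over all genes. UHRF1 lost its call without D3_Co replicate 2, D1_Co replicate 2 or D1_Co replicate 3. Of 11 tested histone genes 2 rose and 4 fell (54.5% called), with the variant gene H2AX at -0.35. Of 3 tested trophoblast and amnion genes 0 rose and 1 fell (33.3% called). GATA3 fell, with 0.597 and 0.545 FPKM in D3_Co, against 1.67 and 1.34 FPKM in D1_Co. All 3 tested blood and endothelium genes were called, TEK (0.77) and KDR (0.25) higher and CD68 (-0.55) lower, but KDR and CD68 lost their calls whichever of the 4 libraries of D3_Co and D1_Co was left out. CD68 sits on a row that the search for misplaced values left unsettled.

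By gene class, long non-coding RNA genes were called mostly upward, with 78 higher and 15 lower of 381 tested (24.4% called). Protein-coding genes had 1887 higher and 1264 lower of 11602 (27.2%). Small nucleolar RNA genes had 2 higher and 5 lower of 142 (4.93%). Of 53 microRNA genes 10 were higher and 1 was lower (20.8% called). The libraries were made from polyadenylated RNA. Whether values of these short RNA genes come from the mature RNA or from longer transcripts was not tested.

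D1_Co replicate 3 stood apart in the RNA of the signal recognition particle. RN7SL1 had 8.05 and 9.12 FPKM in D3_Co, against 15.8 FPKM in D1_Co replicate 2 and 183 FPKM in D1_Co replicate 3. RN7SL2 had 6.91 and 9.34 FPKM in D3_Co, against 19.0 and 320.2 FPKM in these D1_Co libraries. RN7SL3 had 0.639 and 0.627 FPKM in D3_Co, against 1.07 and 16.8 FPKM in D1_Co. None of the 3 genes was called, though each passed the threshold under another setting of the processing, and they are near-identical copies. The part of this RNA in other differences was not tested. Without D3_Co replicate 1, D3_Co replicate 2, D1_Co replicate 2 and D1_Co replicate 3 in turn, limma called 2017, 1674, 1864 and 1816 genes in place of 3312.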
